A study of Mus musculus with 2 samples.

Results

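H2BK120ub peaks were examined at 5 genes of long noncoding RNAs, NEAT1, MALAT1, H19, KCNQ1OT1 and MEG3, in chromatin immunoprecipitation sequencing (ChIP-seq) of liver cells. H2BK120ub is histone H2B carrying a single ubiquitin on a lysine of its C-terminal tail. Each gene was taken with 5 kb on either side, called its window here, and every peak that overlapped a window by at least 1 bp was counted. This gave 18 of the 101866 peaks of the WT library and 12 of the 127444 peaks of the Alb-Cre;UBR7fl/fl (UBR7-KO) library, 30 of 229310 in all. The labels give mouse as the organism, but all gene and peak positions are those of the human build hg19, to which the reads were aligned. Whether mouse reads were placed on hg19 or the reads are human could not be settled from the peak lists, so it is unknown whether the values describe these loci in the mice. Both libraries came from liver primary cells, and the study's methods describe male C57BL/6 mice 8 weeks of age. WT mice carried the intact gene. In UBR7-KO mice, the gene of the E3 ubiquitin ligase UBR7 is flanked by loxP sites. It is cut out by a Cre recombinase expressed from the albumin promoter, which is active in hepatocytes. Other liver cells may keep the gene, which was not checked here. There was 1 library per genotype. Every difference below is thus a difference between 2 libraries, with no test, no p-value and no replicate error. The number of animals behind a library and its read depth are not given in the sources used here, and the cell type could not be checked against markers from peaks alone.

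NEAT1 and MALAT1 RNA are kept in the nucleus, where NEAT1 builds the paraspeckles and MALAT1 gathers in the nuclear speckles that hold splicing factors. H19, KCNQ1OT1 and MEG3 are imprinted, which means that mainly the copy from 1 parent is transcribed. H19 and MEG3 are read from the maternal copy, next to the paternally expressed growth genes IGF2 and DLK1. KCNQ1OT1 is read from the paternal copy, antisense to KCNQ1 and inside it, and its transcription silences neighbouring genes such as CDKN1C on that copy. Ubiquitin is placed on H2B mainly by the ligases RNF20 and RNF40 behind elongating RNA polymerase II, and the mark is known for lying over the bodies of transcribed genes. Peaks of a ChIP-seq library do not tell the 2 parental copies apart.

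A peak lay over the start of most of these genes, and the promoters of the mouse genes are shown here for that reason, as far as RefSeq sequences were at hand. They cover 250 bases before and 50 bases after the start in the mouse build GRCm38.p6, for 3 of the 5 genes, and were not aligned with the hg19 peaks. Malat1 lies at chr19:5802623-5802922 on the minus strand, Kcnq1ot1 at chr7:143296498-143296797 on the minus strand and Meg3, at the first of its starts, at chr12:109540746-109541045 on the plus strand. Capitals mark 3 motifs searched on both strands, the CCAAT box (CCAAT), the TATA box (TATAAA) and the cAMP response element (TGACGTCA), which were chosen after the sequences were seen.
Malat1: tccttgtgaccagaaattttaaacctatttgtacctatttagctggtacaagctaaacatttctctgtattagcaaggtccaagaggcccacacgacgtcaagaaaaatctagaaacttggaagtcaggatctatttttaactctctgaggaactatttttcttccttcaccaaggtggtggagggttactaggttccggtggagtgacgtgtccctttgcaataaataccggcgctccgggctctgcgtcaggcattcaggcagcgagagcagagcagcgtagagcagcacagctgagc
Kcnq1ot1: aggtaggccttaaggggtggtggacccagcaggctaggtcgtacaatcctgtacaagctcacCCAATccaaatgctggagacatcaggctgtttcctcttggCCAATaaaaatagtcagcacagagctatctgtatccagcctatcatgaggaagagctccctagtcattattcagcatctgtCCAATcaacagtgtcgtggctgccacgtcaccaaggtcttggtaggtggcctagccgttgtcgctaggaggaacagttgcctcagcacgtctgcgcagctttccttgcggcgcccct
Meg3: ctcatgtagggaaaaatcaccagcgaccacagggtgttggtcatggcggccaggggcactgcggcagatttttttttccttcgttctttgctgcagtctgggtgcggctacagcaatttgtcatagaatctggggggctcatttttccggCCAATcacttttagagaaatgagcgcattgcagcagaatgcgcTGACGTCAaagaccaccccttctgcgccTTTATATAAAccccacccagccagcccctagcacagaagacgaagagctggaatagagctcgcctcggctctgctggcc
Kcnq1ot1 held 3 CCAAT boxes, whose first bases lay 188, 148 and 67 bases before the start. Meg3 held 1 CCAAT box, 1 cAMP response element and 2 TATA box matches on opposite strands that overlapped each other, 29 and 25 bases before the start. Malat1 held none of the 3 motifs. Among 32851 promoters of this length, 37.4% held a CCAAT box, 13.6% a TATA box and 1.79% a cAMP response element. CG dinucleotides numbered 9 in Kcnq1ot1, 10 in Malat1 and 13 in Meg3, against a median of 7 over all promoters.

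The starts of the genes were nearly all marked. In WT, the starts of 5 of 5 genes lay under a peak, and in UBR7-KO those of 4 of 5, with MALAT1 as the exception. For comparison, 11.6% of all hg19 bases lay under a WT peak and 10.3% under a UBR7-KO peak. In the 100 kb on either side of these genes the shares were 68.3% and 56.5%, so a peak over a base was common there. The share over all gene starts was not counted. Within 1 kb on either side of the start, the share of bases under a WT peak was 87.2% in NEAT1, 71.1% in MALAT1 and 100% in H19, KCNQ1OT1 and MEG3. The corresponding UBR7-KO shares were 89.1% in NEAT1, 0% in MALAT1, 97.1% in KCNQ1OT1 and 100% in H19 and MEG3. Of these 9 start peaks, 8 had a fold enrichment above the median of their list, and that of MALAT1 in WT was below it. The fold enrichment is the strength of a peak relative to its local background, as the authors' caller computed it. The pileup is the height of stacked fragments that the caller gave for the peak. Its values are not whole numbers, and how they were averaged or scaled is not given. At a fold enrichment of at least 2.5, the start of H19 in WT was the only one left under a peak. In such a bulk library, fewer cells with the mark and less of the mark per cell cannot be told apart.

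**Figure D1:**
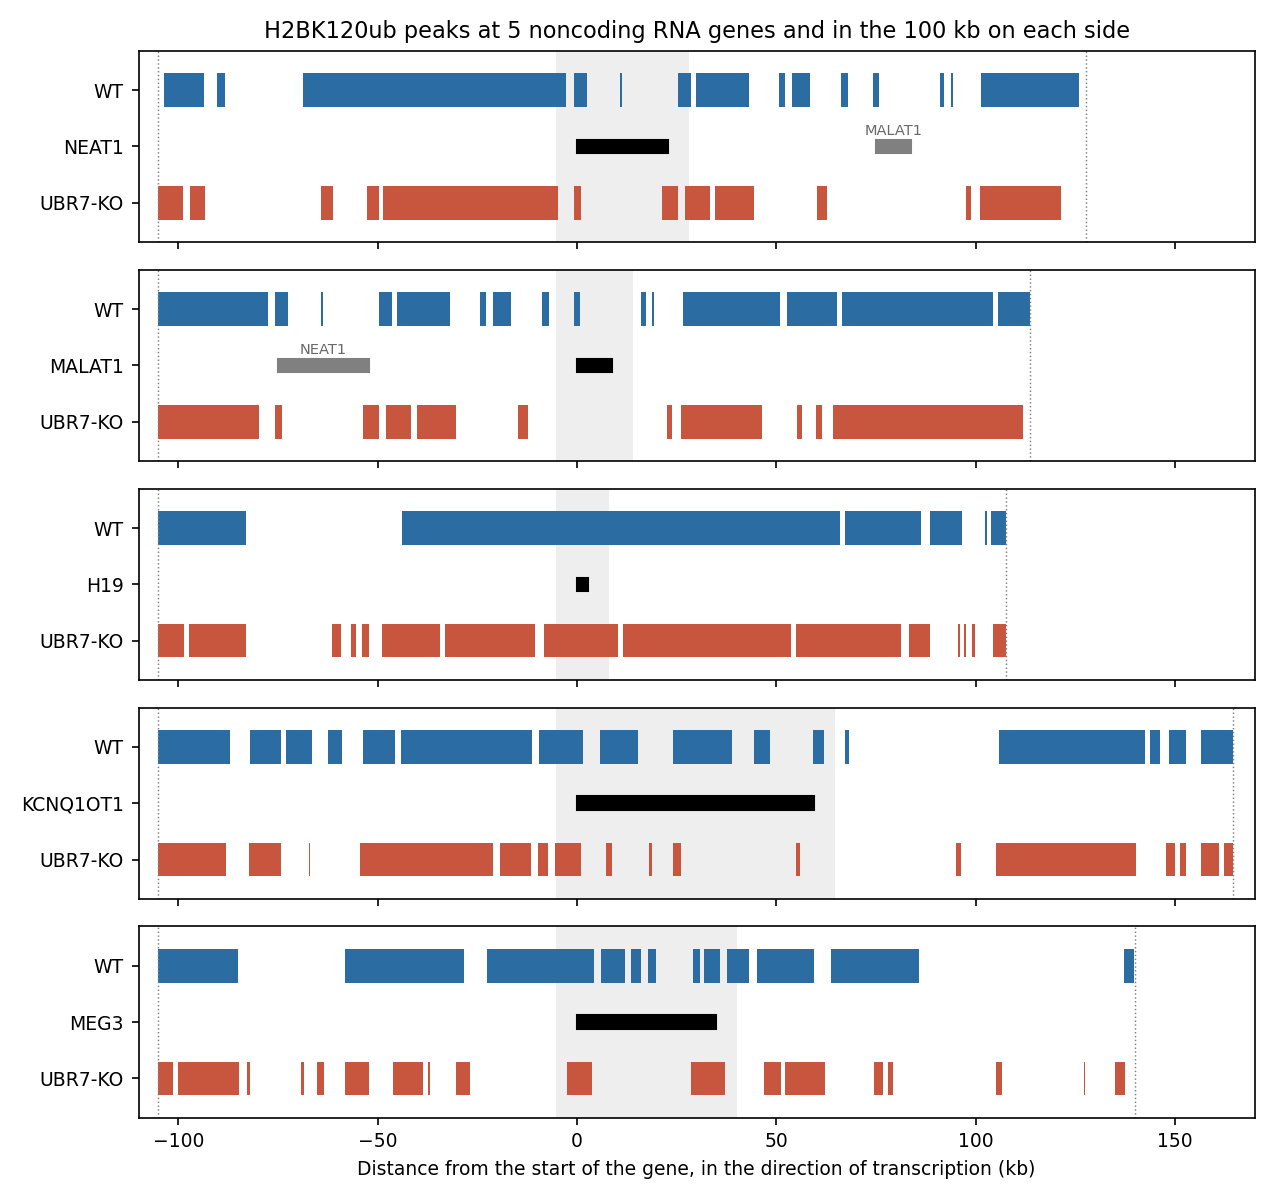
Peaks of WT (blue) and UBR7-KO (red) around the 5 genes. The x axis gives the distance from the start of the gene in kb, in the direction of transcription, the black bar the gene, the grey field the gene with 5 kb on either side and the dotted lines the ends of the flanking 100 kb. A peak stands over the start in every row except the UBR7-KO row of MALAT1, and a single WT peak spans H19.

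The genes differed widely in how much of them was covered. In WT, peaks covered 100% of the H19 window, 61.2% of MEG3, 54.1% of KCNQ1OT1, 25.9% of NEAT1 and 7.61% of MALAT1. In UBR7-KO, they covered 100% of H19, 33.3% of MEG3, 20.2% of NEAT1, 16.3% of KCNQ1OT1 and 0% of MALAT1. H19 thus stood first and MALAT1 last in both libraries, whereas NEAT1 and KCNQ1OT1 changed places. That exchange was lost with the UBR7-KO list limited to the size of the WT list, at 7.81% in NEAT1 and 13.5% in KCNQ1OT1, with no margin around the genes, at 10.5% and 10.7%, and under either of 2 thresholds on peak strength, at 0% and 2.44%. The exchange was kept with peaks within 5 kb merged, at 37.9% in NEAT1 and 16.3% in KCNQ1OT1 in UBR7-KO. With a margin of 10 kb it was also kept, at 38.9% and 18.3%. Whether neighbours in this order differ beyond replicate error is unknown with 1 library per genotype. Over the 5 windows together (178.5 kb), peaks covered 87.6 kb (49.1%) in WT and 45.6 kb (25.5%) in UBR7-KO, a ratio of 0.52. The ratio was 0.827 in the flanks and 0.885 over the whole lists. The windows were covered 0.719 times as densely as their flanks in WT and 0.452 times in UBR7-KO. This order of the libraries reversed under both thresholds on peak strength. At a pileup of 3 times the background the values were 0.497 in WT and 1.06 in UBR7-KO. At a fold enrichment of at least 2.5 they were 0.558 and 5.32, the latter from 1 UBR7-KO peak. Against its own flanks, KCNQ1OT1 was clearly lower, with a ratio of 0.302 in its window and 0.876 in its flanks. So was MALAT1, at 0 against 0.876, but its single WT peak, which had no counterpart, covered only 1423 bp. NEAT1 (0.78 and 0.802), MEG3 (0.544 and 0.563) and H19 (1.0 and 0.982) had nearly the ratio of their own flanks. In MEG3 both values lay below the 0.827 of the flanks together, and that of its window lay slightly above the 0.52 of the 5 windows. The background recovered from pileup and fold enrichment ranged from 2.002 to 3.14 at the WT peaks and from 1.22 to 2.04 at the UBR7-KO peaks, and its part in the difference was not tested. This background scales with read depth, which is unknown, so depth and any other source of this offset cannot be told apart.

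**Figure D2:**
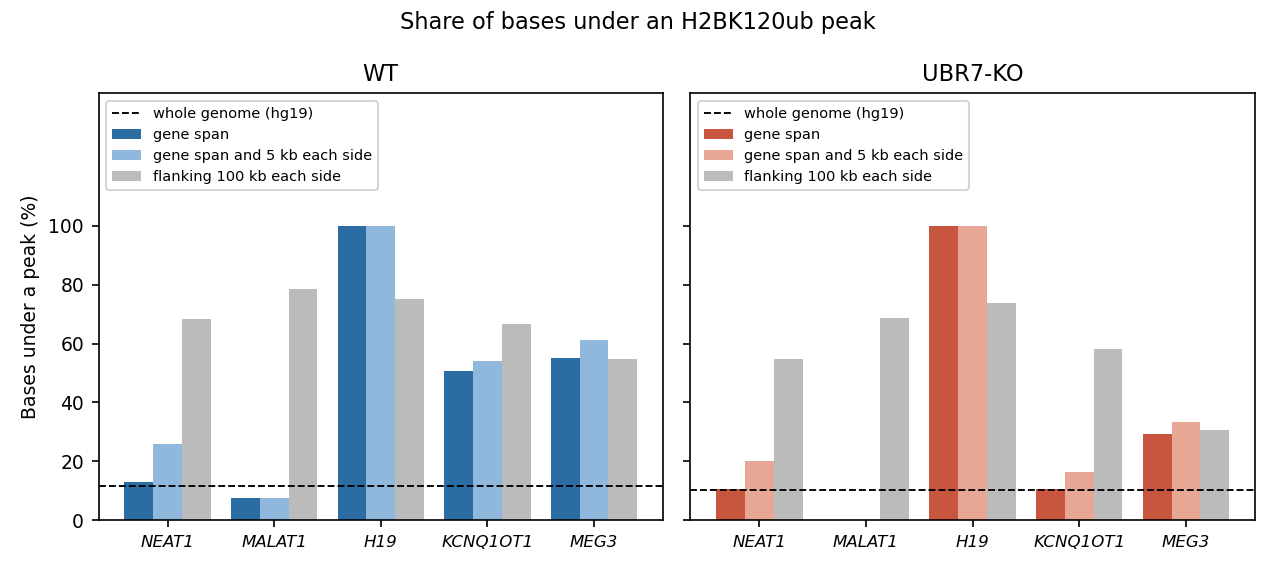
Share of bases under a peak (y axis, %) in the gene span, in the span with 5 kb on either side and in the flanking 100 kb on either side, for each gene (x axis) in WT (left) and UBR7-KO (right). The dashed line is the share of the whole genome, 11.6% in WT and 10.3% in UBR7-KO. The flank bars of NEAT1 and MALAT1 stand far above the gene bars in both libraries, whereas H19 reaches 100% in both.

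NEAT1 (chromosome 11, 65190268 to 65213007, plus strand, 22.7 kb) carried a short peak over its start in both libraries and little else inside the gene. Its window held 4 peaks in each library. Of windows of this length laid end to end over the genome, 63.0% held a WT peak and 69.9% a UBR7-KO peak, so holding peaks was nothing particular in itself. The WT start peak (65189525 to 65192801) reached from 0.743 kb before to 2.53 kb after the start, with a pileup of 7.41 and a fold enrichment of 2.27. The UBR7-KO start peak (65189486 to 65191273) reached from 0.782 kb before to 1.005 kb after it, with a pileup of 5.67 and a fold enrichment of 2.19. The upstream edges of these peaks thus differed by less than 0.1 kb, whereas the WT peak extended further into the gene. Over the whole span, peaks covered 13.1% in WT and 10.5% in UBR7-KO. The gene held a stretch of 11.4 kb without a peak in WT and of 20.3 kb in UBR7-KO. WT alone had a peak of 447 bp inside the gene, 10.9 to 11.3 kb after the start, whereas in UBR7-KO a peak lay over the end of the gene (65211617 to 65215669). The longest peak in each library was a domain that ended shortly before NEAT1. It spanned 66.0 kb in WT (65121582 to 65187588), with a fold enrichment of 2.37, the highest of the 4 WT peaks, and ended 2.68 kb before the start. In UBR7-KO it spanned 43.7 kb (65141706 to 65185446), with a fold enrichment of 2.07, and ended 4.82 kb before the start. The ratio of covered lengths, 0.78, was unsteady: it fell to 0.302 with the UBR7-KO list limited to the size of the WT list and rose to 1.19 with peaks within 5 kb merged.

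MALAT1 (chromosome 11, 65265233 to 65273940, plus strand, 8.71 kb) had 1 peak in WT and 0 in UBR7-KO. Peaks were found in 49.1% of windows of this length in WT and in 55.4% in UBR7-KO, so an empty window was common in either library. The WT peak (65264479 to 65265901) lay over the start, from 0.754 kb before to 0.668 kb after it, with a pileup of 8.06 and a fold enrichment of 2.19. Its percentile in the WT list was 47.1 by fold enrichment and 46.1 by length. The remaining 8.04 kb of the gene had no WT peak. In UBR7-KO the nearest peak was 12.2 kb from the start. A list of peaks holds only what passed the caller's threshold, so an empty window does not show that the signal was 0.

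H19 (chromosome 11, 2016406 to 2019065, minus strand, 2.66 kb) lay whole inside a broad domain in both libraries. Peaks were found in 40.3% of windows of its length in WT and in 45.6% in UBR7-KO. The WT domain (1953168 to 2062911) was 109.7 kb long, a length percentile of 99.98 in its list, and had a pileup of 9.31 and a fold enrichment of 2.73. It reached from 43.8 kb before to 65.9 kb after the start and so took in the stretch upstream of H19, where the imprinting control region shared with IGF2 lies. The UBR7-KO peak over H19 (2008717 to 2027301) was 18.6 kb long, a length percentile of 99.0, and had a pileup of 5.05 and a fold enrichment of 2.43. It reached from 8.24 kb before to 10.3 kb after the start, and the 5 kb upstream of H19 were covered to 100% in both libraries. The UBR7-KO peak was shorter, but its neighbours filled most of the rest of the WT domain. In all, 5 UBR7-KO peaks of 14.5 to 42.1 kb covered 94.5% of the WT domain, and the gaps between them were only 1234 to 2336 bp. The peak over the gene had the highest fold enrichment of these 5, which ranged from 2.09 to 2.43. The caller is taken to add a constant to pileup and background. Without it, the peak over H19 stood at 3.35 times the recovered background in WT and at 3.40 times in UBR7-KO. A threshold of 2.5 on the fold enrichment left the window at 100% in WT and at 0% in UBR7-KO, whereas a pileup of 3 times the background left it at 100% in both.

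KCNQ1OT1 (chromosome 11, 2661768 to 2721224, minus strand, 59.5 kb) kept its start under a peak in both libraries and was covered far less inside the gene in UBR7-KO. Annotations place the end of this RNA differently, and the span given here was used throughout. Both libraries had 5 peaks in the window, where 79.7% and 84.0% of windows of this length held a peak in WT and UBR7-KO. The WT start peak (2719765 to 2730801, 11.0 kb) reached from 9.58 kb before to 1.46 kb after the start, with a pileup of 7.97 and a fold enrichment of 2.32. The UBR7-KO start peak (2720282 to 2726851, 6.57 kb) lay within it, from 5.63 kb before to 0.942 kb after the start, with a pileup of 4.54 and a fold enrichment of 2.19. The start of KCNQ1OT1 lies in the imprinting control region of this cluster, and the 5 kb upstream of it were covered to 100% in both libraries. The libraries parted inside the gene. Peaks covered 50.6% of the span in WT and 10.7% in UBR7-KO, which is close to the 10.3% of the genome. In WT the peaks there included 1 of 14.9 kb (2682278 to 2697151), the longest of the 5, with a fold enrichment of 2.29. In UBR7-KO, the 4 peaks inside the gene were 842 to 1988 bp long. Their fold enrichment ranged from 2.004 to 2.59, and the highest belonged to a peak 7.15 to 8.85 kb after the start (2712379 to 2714070), a percentile of 93.5 in its list. The peak with the highest fold enrichment in WT, 2.53, lay over the end of the gene (2659288 to 2661935), where UBR7-KO had none. Of the UBR7-KO covered length in the window, 84.8% was also covered in WT, but only 25.6% of the WT covered length was covered in UBR7-KO. UBR7-KO over WT, the covered length had a ratio of 0.302, or 0.639 under either of the 2 thresholds on peak strength, where 1 peak per library was left.

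MEG3 (chromosome 14, 101292445 to 101327363, plus strand, 34.9 kb) had 7 peaks in WT and 2 in UBR7-KO, which sat at the ends of the gene. Peaks were found in 70.7% of windows of this length in WT and in 76.9% in UBR7-KO. The WT start peak (101269942 to 101296686, 26.7 kb) was the longest of the 7 and reached from 22.5 kb before to 4.24 kb after the start, with a pileup of 7.22 and a fold enrichment of 2.30. The UBR7-KO start peak (101289852 to 101296284, 6.43 kb) lay within it, from 2.59 kb before to 3.84 kb after the start, with a pileup of 5.26 and a fold enrichment of 2.37, the higher of the 2 in that library. The downstream edges of these peaks were thus about as far into the gene, and the WT peak was the longer one on the upstream side, towards DLK1. Inside the gene, WT had 3 peaks without any counterpart, from 6.11 to 19.7 kb after the start. One of them (101310320 to 101312165, 1846 bp) had the highest fold enrichment of all 30 peaks, 2.93 (percentile 96.8 of the WT list), and a pileup of 10.08. UBR7-KO had no peak for 24.7 kb there. Near the end of the gene, the second UBR7-KO peak (101320967 to 101329479, 8.51 kb), with a fold enrichment of 2.12, took in 2 WT peaks whole, which had fold enrichments of 2.12 and 2.62. Peaks covered 55.1% of the span in WT and 29.3% in UBR7-KO. The ratio of covered lengths in the window, 0.544, was close to that of the flanks, 0.563. The flank ratios of the other four genes ranged from 0.802 to 0.982.

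**Figure D3:**
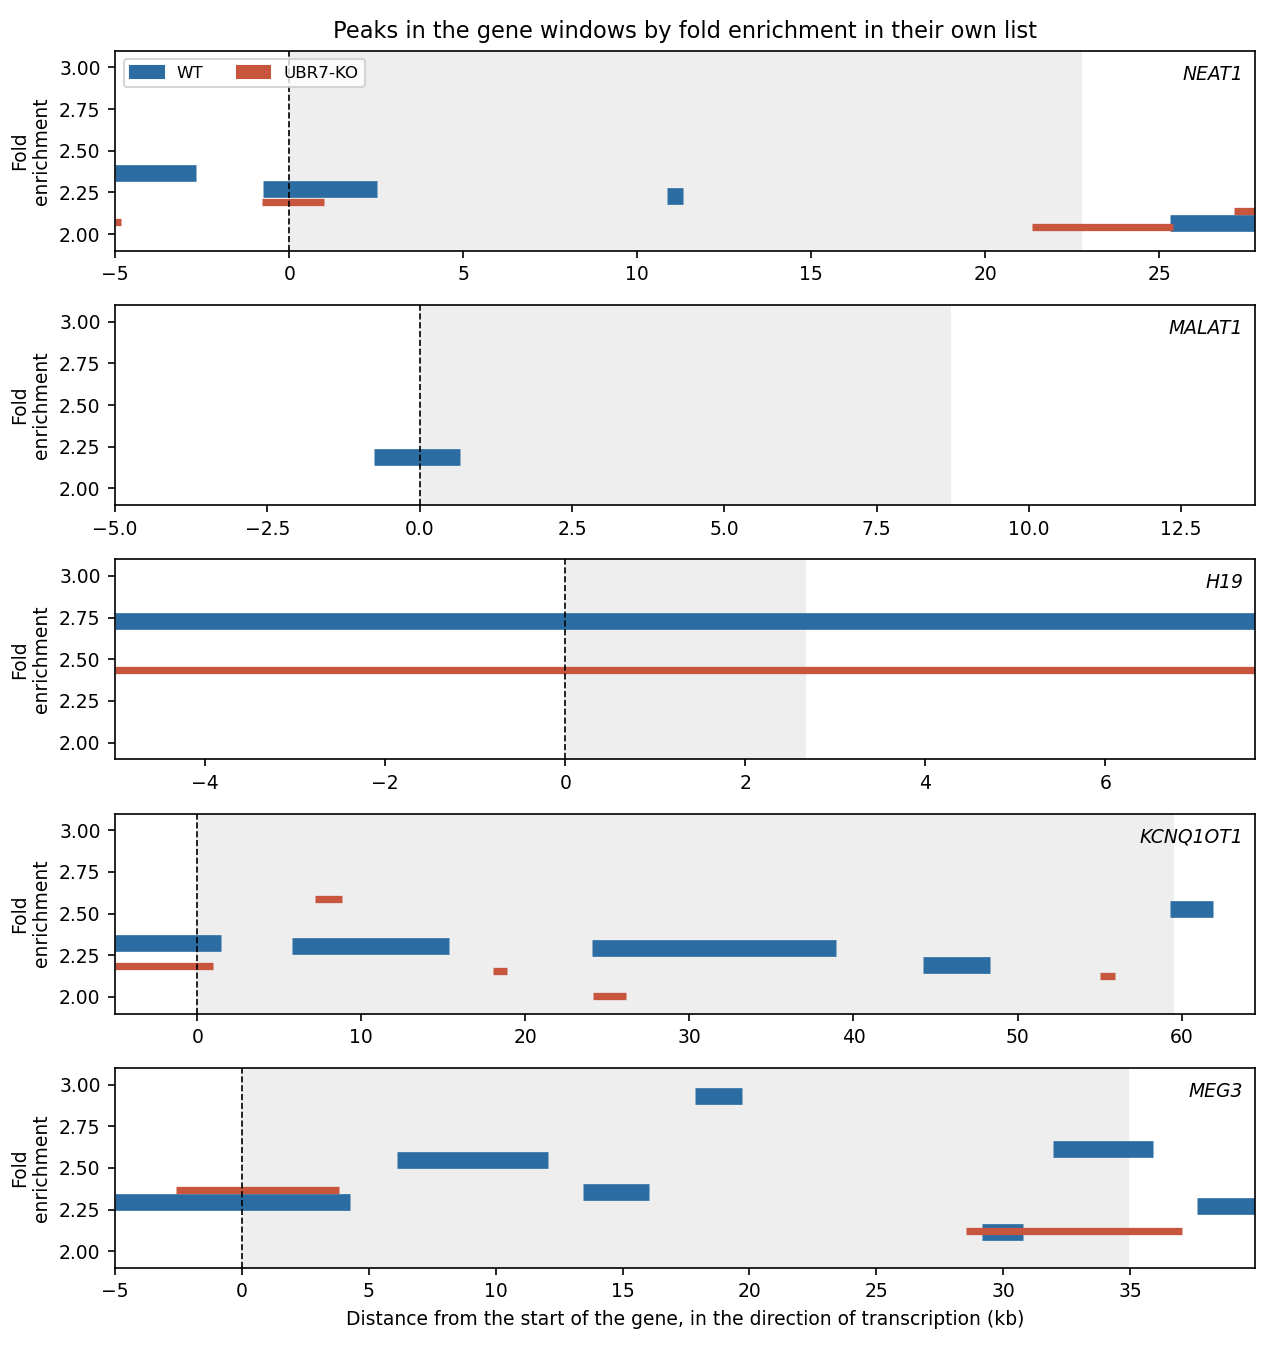
Peaks of WT (blue, thick) and UBR7-KO (red, thin) in the 5 windows, each drawn over its extent on the x axis (kb from the start of the gene, in the direction of transcription) at its fold enrichment on the y axis, which is relative to the background of its own library. Grey fields are the genes and dashed lines their starts. MEG3 holds the highest WT peak, at 2.93, and no UBR7-KO peak between 3.84 and 28.5 kb.

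The windows were then set against the 100 kb on either side, with the windows of other members left out. All 5 genes lay in densely marked surroundings. Peaks covered 68.3% of the flanks together in WT and 56.5% in UBR7-KO, against 14.7% and 12.6% of chromosome 11 and 10.3% and 9.56% of chromosome 14. NEAT1 and MALAT1 stood out of their surroundings as gaps. The NEAT1 flanks were covered to 68.2% in WT and 54.7% in UBR7-KO, against 25.9% and 20.2% of its window. The MALAT1 flanks were covered to 78.6% and 68.8%, against 7.61% and 0%. H19 was the reverse, with flanks at 75.3% and 73.9% around a window at 100%. KCNQ1OT1 lay below its flanks in both libraries, at 54.1% against 66.6% in WT and 16.3% against 58.3% in UBR7-KO. Its upstream flank was the denser side, at 81.4% and 69.7%, and its downstream flank had 51.7% and 47.0%. MEG3 was close to its flanks in both libraries, at 61.2% against 54.7% in WT and 33.3% against 30.8% in UBR7-KO, and this order reversed with flanks of 50 kb in WT. Among stronger WT peaks the MEG3 window exceeded its flanks by more, at 3.65 times at a fold enrichment of at least 2.5 and 3.13 times at a pileup 3 times the background.

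Grouped by kind, NEAT1 and MALAT1 together had 11.6% of their spans covered in WT and 7.62% in UBR7-KO. The 3 imprinted genes had 53.6% and 19.8%, sums in which the long KCNQ1OT1 weighs most. The single genes were far apart, at 100% in both libraries in H19, 55.1% and 29.3% in MEG3 and 50.6% and 10.7% in KCNQ1OT1. In UBR7-KO, KCNQ1OT1 was thus close to NEAT1, at 10.5%. Of the lower covered length in UBR7-KO, most fell on KCNQ1OT1 and MEG3, where 27963 and 15473 bp of the windows were covered in WT alone. The reverse, bases covered in UBR7-KO alone, came to 1730 bp in KCNQ1OT1, 2948 bp in MEG3 and 4002 bp in NEAT1.

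Finally, the 30 peaks were placed within their own lists. A peak of the other library overlapped 10 of the 18 WT peaks (55.6%, 95% Wilson interval 33.7 to 75.4), against 40.2% of the whole WT list. The same held for 10 of the 12 UBR7-KO peaks (83.3%, interval 55.2 to 95.3), against 35.2% of the whole UBR7-KO list. These intervals hold for counting error alone and take the peaks as independent, which they were not. In MEG3, for instance, the same UBR7-KO peak overlapped 2 WT peaks. The intervals are thus no test against the whole lists. The WT peaks without a counterpart were 1 in NEAT1, the peak of MALAT1, 2 in KCNQ1OT1 and 4 in MEG3, and the UBR7-KO peaks without one were both in KCNQ1OT1. These shares depended on the overlap rule. With 50% of the counted peak required, they were 33.3% in WT and 75% in UBR7-KO, against 26.5% of either whole list, and with the midpoint required they were 27.8% and 75%, against 27.6% and 27.1%. The peaks were also long, which the choice of members favours, since a long peak is more likely to touch a fixed window. The domains before NEAT1, for instance, had 3.52% of their length in its window in WT and 0.409% in UBR7-KO. The part of length in the overlaps was not tested. The WT peaks had a median length of 3994 bp and the UBR7-KO peaks of 5164.5 bp, against 1584.5 and 1361.5 bp over the lists, and 16 of 18 and 10 of 12 exceeded the median of their list. Their fold enrichment was less apart from the lists. Its median was 2.30 in WT, against 2.20 over the list, and 2.15 in UBR7-KO, against 2.15. Of the WT peaks, 14 of 18 were above the median fold enrichment of their list, and of the UBR7-KO peaks 6 of 12.

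**Figure D4:**
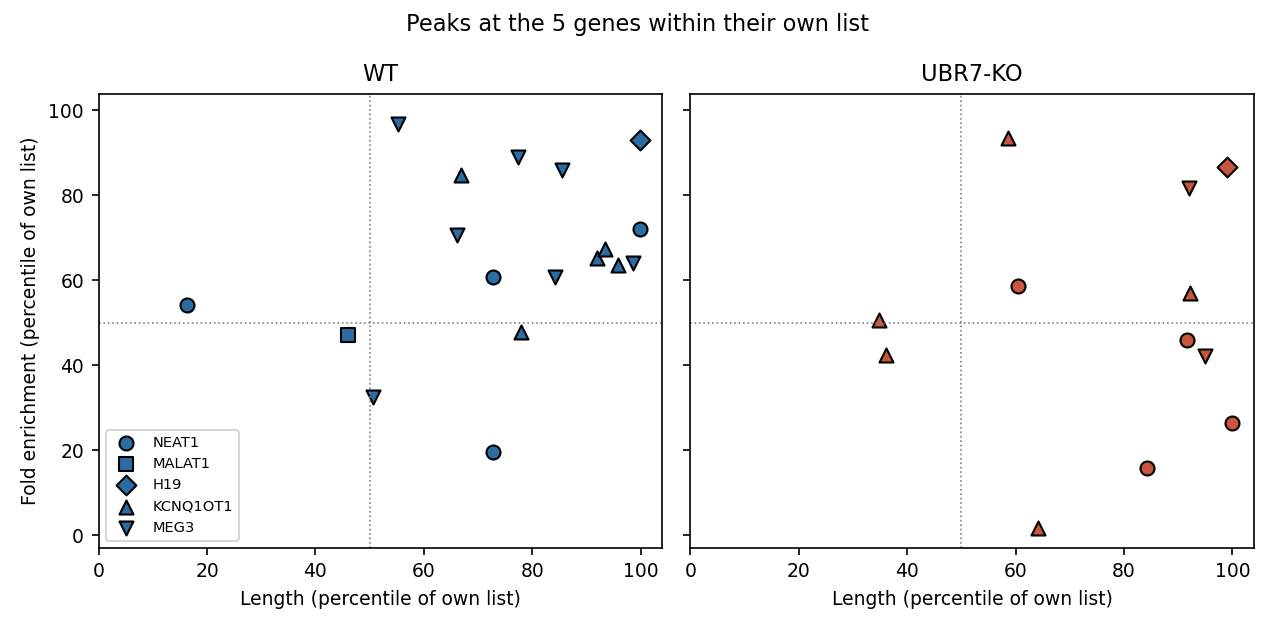
The 18 WT peaks (left) and 12 UBR7-KO peaks (right) at the 5 genes, placed by length (x axis) and fold enrichment (y axis), both as percentiles of their own list, with a marker shape for each gene and dotted lines at the medians. Most points lie right of the median length, and the peak over H19 lies in the upper right corner in both.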

How the data were processed

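H2BK120ub was profiled by ChIP-seq in 1 library of WT and 1 of UBR7-KO liver primary cells, grouped by the genotype in the labels. The labels call the cells conditionally immortalized and the libraries cDNA, whereas the study's methods describe digested liver and ChIP. Reads were aligned to hg19, by BWA aln per the methods and by Bowtie 1.1.2 per the submitters' processing notes, and MACS called peaks in each library alone under a q-value threshold that is not given. The methods name rabbit IgG beside the antibody, but not what MACS used as its control. The pileup, a signal, and the fold enrichment, a ratio, were deposited as the authors' peak caller gave them. The lowest fold enrichment was 2 in both lists. Pileup scales with depth, which is unknown, and so does the background recovered from it.

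The UBR7-KO list held 6 blank rows, which were dropped. No repeated peaks were found, and 0 peaks lay outside hg19, by chromosome lengths in GenomeInfoDb 1.38.1. Gene spans were fixed beforehand, and the genes and measures were chosen with earlier results of these data known. All 5 genes were named, and for each gene and list the longest peak, the peak with the highest fold enrichment and the one over the start. Background was recovered as pileup plus 1 over fold enrichment, minus 1. This takes the caller to add 1 to both, a setting that is not given, so the recovered values are approximate. Windows of equal length were laid end to end over the chromosomes, assembly gaps included. Markers of liver cells, other imprinted genes and exons were not analysed here, since no hg19 annotation was used. Overlaps and covered lengths were computed in Python 3.11.15 (pandas 2.3.3, numpy 2.4.6, scipy 1.17.1, matplotlib 3.10.9) by code tested on simulated peaks against bedtools 2.31.1. Promoter sequences are those of RefSeq in GRCm38.p6. Alternatives covered peak strength, list size, merging, margins, flanks and the overlap rule.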

Additional observations from a re-analysis of the deposited data

How the results depend on the processing

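The covered length of the 5 windows stayed lower in UBR7-KO than in WT under all 6 alternatives tried for it, with ratios from 0.0625 to 0.768 (0.52 as reported). Limiting the UBR7-KO list could only remove UBR7-KO peaks. The recovered background takes the caller to add 1 to pileup and background. With that constant, the same pileup over background gives a lower fold enrichment where the background is lower. The background ranged lower at the UBR7-KO peaks, and its part in the loss of peaks was not tested. The limited list and the fixed fold enrichment are thus no independent checks on the direction. Peak strength changed most. At a fold enrichment of at least 2.5, 5 WT peaks and 1 UBR7-KO peak were left. They covered 15.2% and 0.948% of the windows (ratio 0.0625) and lay over 1 and 0 starts. Overlap with the other list, cut at the same threshold, was 0%, whereas the full UBR7-KO list covered 94.5% of the WT domain over H19. The 5 windows were then covered 5.32 times as densely as their flanks in UBR7-KO, against 0.452 as reported, and the MEG3 window 0 times. These values rest on 1 UBR7-KO peak. With a pileup no lower than 3 times the background recovered at the peak, 5 and 3 peaks covered 15.2% and 11.6% and lay over 1 and 2 starts. They overlapped the other list, cut at the same threshold, in 20% and 33.3% of cases. The windows stood at 1.06 times their flanks in UBR7-KO. The overlap over all peaks was not counted at either threshold. Merging peaks within 5 kb left 11 WT peaks and reversed the MEG3 window over its flanks in UBR7-KO (0.927, against 1.08) and the NEAT1 ratio of UBR7-KO over WT (1.19, against 0.78). Gene spans with no margin were covered to 16.8% in UBR7-KO. Flanks of 50 kb reversed MEG3 in WT (0.729, against 1.12). Requiring 50% of the counted peak, or its midpoint, lowered the WT overlap to 33.3% and 27.8%. The cause of these changes was not tested. Of 220 values for single genes, 153 stayed within 1.5 times, 63 moved further and 4 reversed. Some of the 153 could not have moved, such as the WT values with the UBR7-KO list limited. Of 72 values for the 5 genes together, 49 stayed, 21 moved further and 2 reversed, with overlap shares judged by their intervals. No paired analysis was possible because there was 1 library of either genotype, so no replicate could be left out. Read depth is unknown and limits every absent peak.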

Other observations

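The stretch between NEAT1 and MALAT1, 52.2 kb from the end of the first to the start of the second, held 6 WT and 4 UBR7-KO peaks, which covered 48.1% and 40.6% of it. It was thus covered more densely in both libraries than either gene, at 13.1% and 10.5% of the NEAT1 span and 7.68% and 0% of the MALAT1 span. Peaks over 10 kb that reached into the flanks of the 5 genes numbered 19 in WT and 15 in UBR7-KO. Around H19 there were more in UBR7-KO, 7 against 3, but 5 of these 7 overlapped the single WT domain over the gene. Gaps of only 1234 to 2336 bp parted these 5. Peaks covered 75.3% of the H19 flanks in WT and 73.9% in UBR7-KO, so the higher count does not mean more covered sequence. Around MEG3 there were fewer in UBR7-KO, 1 against 5. These counts include long peaks that also reach into a window. How common peaks of this length are in the whole lists was not counted.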
